A study of Mus musculus with 6 samples.

Results

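Interferon-stimulated genes are the genes that cells switch on when interferon reaches them. A set of 42 of these genes, chosen by symbol, was read from a table of 38293 genes. All 42 were in the table and all 42 passed the filter on low counts, among 14746 genes that did. RNA sequencing of heart tissue was available for 3 WT and 3 Zeb2 cKO mice, and every mouse had received a permanent occlusion of the left anterior descending (LAD) coronary artery, which causes a myocardial infarction (MI), 14 days before the tissue was taken. The mice were adult males, and the labels give the strain as C57BL/6J, backcrossed. Per the methods, the animals labelled WT carried the floxed allele (Zeb2 fl/fl) without Cre, and the Zeb2 cKO mice carried Zeb2 fl/fl together with a Cre recombinase driven by the Myh6 promoter (αMHC-Cre), which acts in cardiomyocytes. The tissue holds all cell types of the heart, so that the deletion touches only a portion of the cells whose RNA was counted. The labels place the tissue in the border region of the infarct, whereas the methods place it in the remote zone, and no sham-operated heart is among these libraries. The comparison asks whether loss of ZEB2, a zinc finger transcription factor, from cardiomyocytes went with another level of the interferon-stimulated genes after MI.

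Type I interferons bind a receptor of the Ifnar1 and Ifnar2 chains, whose kinases phosphorylate STAT2. A complex that holds STAT2 and IRF9 binds the interferon-stimulated response element (ISRE) in the promoters of its target genes, whereas the gamma-activated site (GAS) serves the response to type II interferon. In the heart after MI, infiltrating macrophages and other stromal cells are a known site of this response, and cardiomyocytes also have the receptor.

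The regulatory letters that give the set its name were looked for first. RefSeq promoter windows of build GRCm38.p6, from 250 bases before to 50 bases after the annotated start, were matched for 30 of the 42 members. The ISRE core, searched on both strands as GAAA, 2 bases of any kind and GAAA,, lay in the windows of 16 of these 30 members (53.3%), compared with 3.99% of the 27025 genes of the table. The GAS letters, searched as TTC, 3 bases of any kind and GAA, which read the same on both strands, lay in those of 8 members (26.7%), compared with 9.55% of all genes. The 7 stretches that follow are examples from members whose values are given below, and each is 60 bases upstream of the start, written 5′ to 3′ on the strand of its gene, with the ISRE core in capitals. Other members with values below, among them Gbp2, Irgm1 and Rsad2, also hold the core and are not shown. Overlapping matches run together in Isg15 and Bst2, and a core that opens with TTTC is the same motif on the other strand.
Isg15 (chr4:156200850-156200909, minus strand): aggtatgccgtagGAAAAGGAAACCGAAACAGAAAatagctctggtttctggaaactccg
Ifit1 (chr19:34640779-34640838, plus strand): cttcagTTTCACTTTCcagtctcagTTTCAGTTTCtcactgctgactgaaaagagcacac
Ifit3 (chr19:34583382-34583441, plus strand): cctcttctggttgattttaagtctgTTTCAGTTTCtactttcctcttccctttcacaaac
Bst2 (chr8:71537562-71537621, minus strand): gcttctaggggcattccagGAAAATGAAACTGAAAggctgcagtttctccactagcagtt
Stat2 (chr10:128270251-128270310, plus strand): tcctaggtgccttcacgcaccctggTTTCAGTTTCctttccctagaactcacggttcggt
Gbp7 (chr3:142530258-142530317, plus strand): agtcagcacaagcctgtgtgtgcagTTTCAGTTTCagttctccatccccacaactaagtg
Igtp (chr11:58199496-58199555, plus strand): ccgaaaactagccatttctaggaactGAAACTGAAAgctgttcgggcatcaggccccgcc
These letters describe the sequence and do not show that a factor was bound.

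Depth ranged from 37288174 to 51136331 counts per library, of which 60.5 to 67.0% lay on mitochondrially encoded genes, and levels below are in CPM, which sets the counts of every library to the same TMM-normalized total. Zeb2 itself was counted at 61.3, 116 and 71.9 CPM in WT 1, 2 and 3 and at 59.6, 72.6 and 66.5 CPM in Zeb2 cKO 1, 2 and 3. The groups overlapped (log2 fold change -0.33 ± 0.25 (standard error), exact permutation test, two-sided, p = 0.50), and without WT 2 the fold change was -0.01, with the groups then at like levels. By qPCR the paper reports lower cardiac Zeb2 in the Zeb2 cKO mice. After MI it reports loss of ZEB2 from cardiomyocytes, by qPCR and immunofluorescence. WT 2 stood apart from the other libraries in several lists of cell type markers: the summed level of 15 macrophage markers was 983 CPM in WT 2 and between 249 and 346 CPM in the other 5 libraries, that of 12 fibroblast markers was 9836 CPM compared with 1752 to 2424 CPM, and that of 12 cardiomyocyte markers was 14298 CPM compared with 23850 to 30307 CPM. In tissue of mixed cells, fewer cells of a type and less RNA per cell cannot be told apart. Many of the results below that rest on single libraries are also given without them.

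Interferon-stimulated genes pointed lower in Zeb2 cKO hearts almost as a whole, without any member passing the test. The log2 fold change of Zeb2 cKO over WT was below 0 for 41 of the 42 members, compared with 51.4% of all tested genes. It was below -0.2 for 30 members (22.6% of all tested genes) and above 0.2 for 0 members (15.9% of all tested genes). The median fold change of the members was -0.25 on the log2 scale, compared with -0.01 over all tested genes, and single members ranged from -1.26 (Isg15) to 0.07 (Bst2). In edgeR's quasi-likelihood test, 0 members had an adjusted p under 0.05, as did 0% of all tested genes, and the members' adjusted p-values lay between 0.957 and 0.991. At an unadjusted p under 0.05, 0 members were called, compared with 0.861% of all genes for lower and 1.04% for higher. DESeq2 likewise called 0 members at an unadjusted p under 0.05 (1.47% of all tested genes for lower) and 0 at an adjusted one (0.0136%). The smallest unadjusted p of a member was 0.0508 in edgeR, for Ifih1.

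A pair of libraries stood apart in the module mean, which is the average, over the 42 members, of each gene's log2 CPM minus that gene's mean over the 6 libraries. It was -0.16, 0.49 and 0.16 in WT 1, 2 and 3, and -0.58, 0.04 and 0.05 in Zeb2 cKO 1, 2 and 3. WT 2 was the highest library and Zeb2 cKO 1 the lowest, whereas the other 4 libraries lay between -0.16 and 0.16, with WT 1 below both Zeb2 cKO 2 and Zeb2 cKO 3. The group means were 0.16 ± 0.32 and -0.16 ± 0.36 (SD, n = 3 each), a difference of -0.33 that was about as large as the SDs. On the linear scale the 42 members summed to 381, 515 and 441 CPM in WT and to 302, 421 and 419 CPM in Zeb2 cKO hearts.

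**Figure D1:**
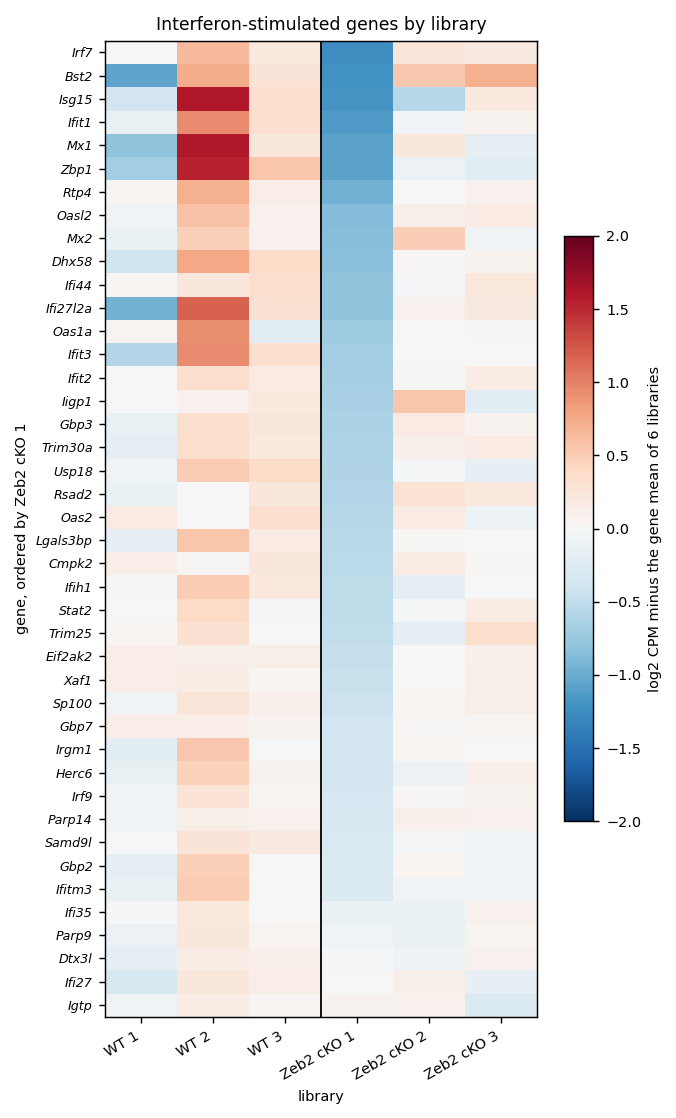
Heat map of the 42 members (rows, ordered by their level in Zeb2 cKO 1) in the 6 libraries (columns); colour is log2 CPM minus the gene's mean over the 6 libraries. The column of WT 2 is red for most rows and that of Zeb2 cKO 1 is blue for most, with Igtp, Ifi27 and Dtx3l at the foot near 0 in Zeb2 cKO 1.

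Most members took their highest value in WT 2 and their lowest in Zeb2 cKO 1. WT 2 held the highest CPM of 34 of the 42 members (35.2% of all tested genes), Zeb2 cKO 1 held the lowest of 36 (16.9% of all tested genes), and both held for 28 members (66.7%), compared with 9.38% of all tested genes. The level in WT 2 over the mean of WT 1 and WT 3 had a median of 1.27 over the members, from 0.849 to 3.67, and exceeded 1.5 for 12 members (18.9% of all tested genes) and 2 for 7 of them (10.1%). In Zeb2 cKO 1 the level over the mean of Zeb2 cKO 2 and 3 had a median of 0.654, from 0.270 to 1.12, and fell short of 0.75 for 31 members, compared with 10.5% of all tested genes. Over all tested genes both medians were close to 1 (0.992 and 0.998). WT 2 also had the lowest total count of the 6 libraries and Zeb2 cKO 1 the highest, and the share of mitochondrially encoded counts was 60.5% in WT 2 and 63.7% in Zeb2 cKO 1. With mitochondrially encoded counts set aside, neither library was at that extreme. WT 2 then had 14710669 counts, above WT 1 (14330275) and WT 3 (14301225). Zeb2 cKO 1 had 18558343, below Zeb2 cKO 3 (19024394). The part of depth in the result was not tested.

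Leaving out single libraries changed the size of the difference. Without WT 2 the module mean differed by -0.16 and 37 members lay below 0 (49.1% of all genes tested without it), of which 14 were below -0.2 (11.7%). Leaving out Zeb2 cKO 1 gave a difference of -0.12, 36 members below 0 (52%) and again 14 below -0.2 (22.1%). Without WT 1, the WT library with the lowest module mean, the difference was -0.49, all 42 members were below 0 (49.3%), and 9 had an unadjusted edgeR p under 0.05 (5.49%), with 0 past the adjusted threshold. The libraries of 21 members did not overlap there, all lower in Zeb2 cKO (12.1%). With both WT 2 and Zeb2 cKO 1 left out, a pair chosen because of its values, the difference was 0.05 in the other direction, 18 members lay below 0 (50.7%) and 24 above, and the median fold change was 0.03. Of the members, 3 were then below -0.2 (11.1%; Zbp1, Oas2 and Usp18) and 4 above 0.2 (14.3%; Mx1, Mx2, Bst2 and Ifi27l2a).

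**Figure D2:**
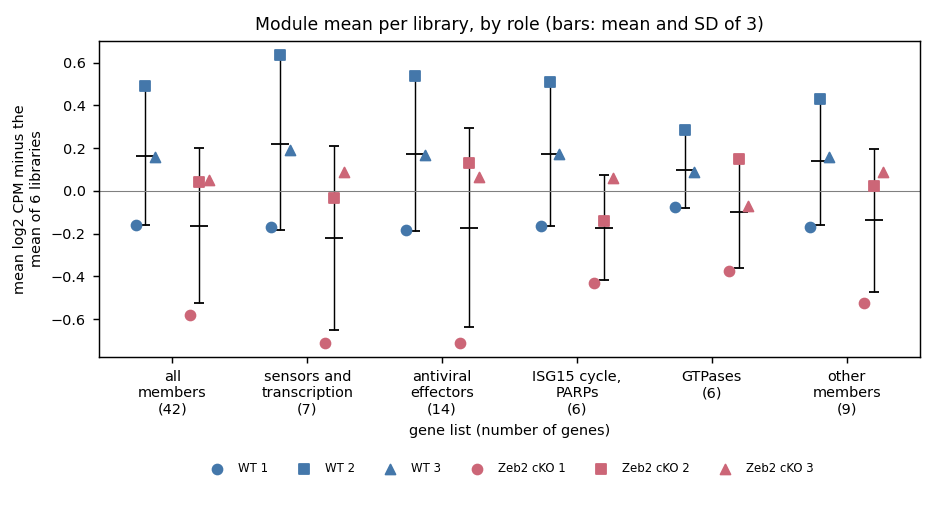
Module mean per library (vertical axis, mean log2 CPM minus the mean of the 6 libraries) for all members and for each role; blue symbols are WT and red symbols Zeb2 cKO libraries, and bars give the mean and SD of 3 libraries. WT 2 is the highest and Zeb2 cKO 1 the lowest library in all 6 columns.

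The counts by role below can be read beside the shares of all tested genes given above. These were 51.4% below 0, 22.6% below -0.2, 35.2% highest in WT 2 and 16.9% lowest in Zeb2 cKO 1. Among the sensors and factors that control transcription, all 7 members had a fold change below 0, 5 of them below -0.2, and the mean difference over the role was -0.44. Zeb2 cKO 1 was the lowest library for all 7 and WT 2 the highest for 6. Irf7, the factor that amplifies type I interferon production, was counted at 4.04, 6.38 and 4.64 CPM in WT and at 1.70, 4.79 and 4.60 CPM in Zeb2 cKO hearts. Zeb2 cKO 1 lay far under the other 5 libraries, which overlapped, and the log2 fold change of -0.44 ± 0.39 became -0.10 without it. Irf9, the DNA-binding subunit of the ISRE complex and the member of this role with the highest level per kilobase of exon, had 11.3, 14.3 and 12.3 CPM in WT and 9.33, 12.0 and 12.4 CPM in Zeb2 cKO (-0.17 ± 0.16). Stat2, its partner, had 8.55, 11.2 and 8.39 CPM in WT and 6.00, 8.37 and 9.49 CPM in Zeb2 cKO (-0.24 ± 0.21). For both genes Zeb2 cKO 3 was above at least 1 WT library, and the fold change was smaller than 0.1 in size without either WT 2 or Zeb2 cKO 1.

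Zbp1, a sensor of Z-form nucleic acids, had the lowest fold change of this role and is the member with the lowest level per kilobase. Its CPM was 0.398, 2.05 and 1.02 in WT and 0.300, 0.622 and 0.577 in Zeb2 cKO, from 15 to 90 reads per library. WT 2 and WT 3 lay above all Zeb2 cKO libraries whereas WT 1 lay among them, and the fold change of -1.22 ± 0.59 was -0.50 without WT 2. Ifih1, which encodes the double-stranded RNA sensor MDA5, had 9.08, 13.3 and 10.7 CPM in WT and 6.53, 8.16 and 9.36 CPM in Zeb2 cKO (-0.46 ± 0.20). Only WT 1 and Zeb2 cKO 3 crossed between the groups (exact permutation test, two-sided, p = 0.20, smallest possible 0.10), and the fold change was -0.18 with both WT 2 and Zeb2 cKO 1 left out. The RIG-I-like regulator Dhx58 (-0.55 ± 0.39) and the ubiquitin ligase Trim25 (-0.18 ± 0.23) had their lowest value in Zeb2 cKO 1 as well.

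The antiviral effectors act on viral RNA, on translation or on the virus particle. Of 14 members, 13 had a fold change below 0 and 12 below -0.2, Zeb2 cKO 1 was the lowest library for all 14, and the mean difference was -0.35. Ifit1, which binds foreign RNA lacking the host cap methylation, had 3.45, 7.45 and 4.87 CPM in WT and 1.72, 3.69 and 4.02 CPM in Zeb2 cKO. WT 2 was higher and Zeb2 cKO 1 lower than any other library, with the remaining 4 between 3.45 and 4.87 CPM, and the fold change was -0.74 ± 0.39 (exact permutation test, two-sided, p = 0.30). It was -0.40 without WT 2 and -0.11 without both WT 2 and Zeb2 cKO 1. Ifit3, a partner of Ifit1 in the same complex, had 2.52, 7.43 and 4.79 CPM in WT and 2.36, 3.83 and 3.80 CPM in Zeb2 cKO (-0.57 ± 0.40). Its fold change was -0.13 without WT 2 and 0.06 without both WT 2 and Zeb2 cKO 1. WT 1 lay with Zeb2 cKO 1 at the low end, and since 97.4% of the Ifit3 transcript is near-identical to Ifit3b, the reads of the pair may have been split.

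Mx1, a gene of the dynamin-like GTPases, had the lowest fold change of the effectors (-0.99 ± 0.66), at a level close to the lowest of the set. Its CPM was 0.372, 2.16 and 0.807 in WT and 0.300, 0.807 and 0.596 in Zeb2 cKO. WT 2 was 3.67 times the mean of the other WT libraries, the largest such ratio of the 42 members, and without WT 2 the fold change was -0.06. Bst2, the surface protein tetherin that holds budding virus particles, was the sole member with a fold change above 0 (0.07 ± 0.60). It was counted at 1.30, 4.65 and 3.28 CPM in WT and at 1.16, 4.03 and 4.54 CPM in Zeb2 cKO, so that WT 1 and Zeb2 cKO 1 were both low and the other 4 high. Among the 42 members Bst2 also had the lowest ratio of Zeb2 cKO 1 to the other Zeb2 cKO libraries (0.270), and its fold change was 0.90 with both WT 2 and Zeb2 cKO 1 left out.

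Ifitm3, which blocks virus entry at the endosomal membrane, had the highest level per kilobase of all members (median 31.6 CPM per kilobase). Its CPM was 20.5, 32.0 and 22.4 in WT and 18.6, 21.4 and 21.5 in Zeb2 cKO. WT 2 stood above 5 libraries that lay within 18.6 and 22.4 CPM, and the fold change of -0.29 ± 0.19 was -0.06 without WT 2. Samd9l, an inducible inhibitor of translation, had 28.6, 34.3 and 32.7 CPM in WT and 23.2, 28.0 and 27.4 CPM in Zeb2 cKO. All 3 Zeb2 cKO libraries lay under all 3 WT libraries, although WT 1 and Zeb2 cKO 2 differed by little, and the fold change was -0.28 ± 0.13 (exact permutation test, two-sided, p = 0.10, the smallest this design allows). It was -0.15 without both WT 2 and Zeb2 cKO 1. Members whose libraries did not overlap numbered 3 in the lower direction, Samd9l, Eif2ak2 and Gbp7 (2.97% of all tested genes), and 0 in the higher direction (3.39%). Eif2ak2, the double-stranded RNA-activated kinase PKR, lay at 15.0, 14.8 and 14.7 CPM in WT and at 9.91, 13.5 and 14.5 CPM in Zeb2 cKO.

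The remaining effectors also had their lowest value in Zeb2 cKO 1, whereas the highest library was WT 3 for Oas2 and Cmpk2 and Zeb2 cKO 2 for Mx2 and Rsad2. The oligoadenylate synthetases Oas1a (-0.58), Oasl2 (-0.37) and Oas2 (-0.32), whose product activates RNase L, were below -0.2. Without WT 2 the fold change of Oas1a was -0.14. Since 100% of the Oas1a transcript is near-identical to its copy Oas1g, the reads of the pair may have been split. Oas1a was counted at 31 to 89 reads per library and Oas1g, counted separately, at 11 to 17. Ifit2 (-0.30), Cmpk2 (-0.23) and Mx2 (-0.22) were also below -0.2, whereas Rsad2, which encodes viperin, had a fold change of -0.04 ± 0.24. Rsad2 lay at 11.6, 12.8 and 14.9 CPM in WT and at 8.45, 15.5 and 14.5 CPM in Zeb2 cKO, so that Zeb2 cKO 1 was low and Zeb2 cKO 2 was the highest of the 6.

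**Figure D3:**
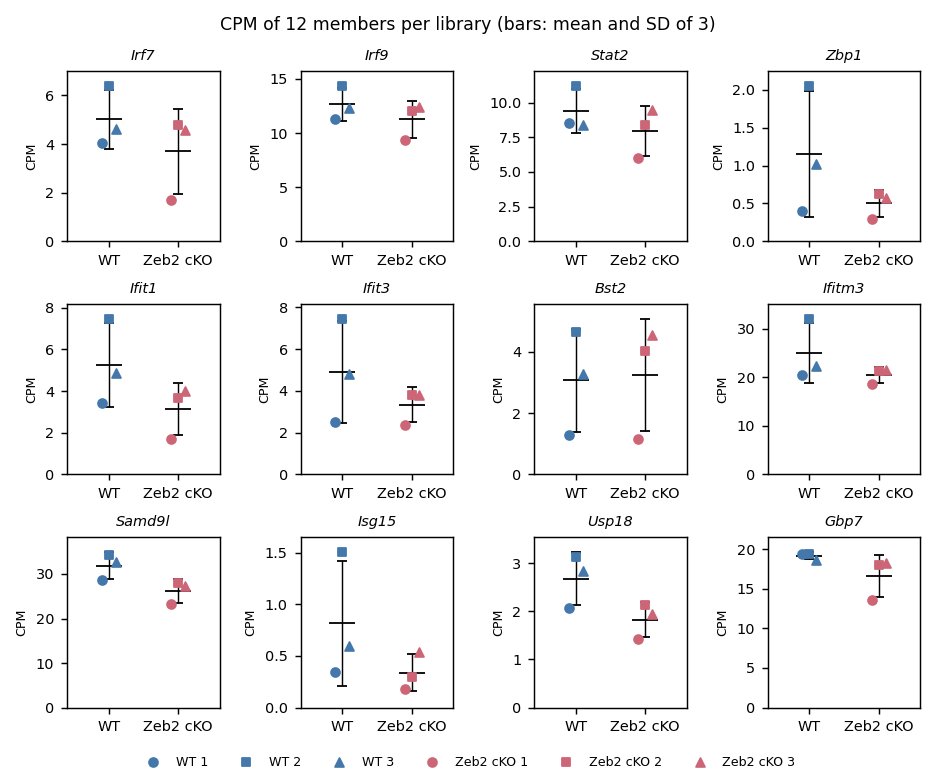
CPM of 12 members in each library (vertical axes start at 0), with WT in blue and Zeb2 cKO in red; circles, squares and triangles are libraries 1, 2 and 3 of a group, and bars give the mean and SD of 3. The red circle (Zeb2 cKO 1) is the lowest point of every panel, and the groups are separated in Samd9l and Gbp7 only.

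ISG15 is a ubiquitin-like protein that is attached to other proteins by an E3 ligase, HERC6 in mice, and removed by USP18, which also restrains the type I receptor. Isg15 had the lowest fold change of all 42 members (-1.26 ± 0.63; exact permutation test, two-sided, p = 0.20). It rested on few reads, 9 to 66 per library, and lay at 0.345, 1.5 and 0.599 CPM in WT and at 0.180, 0.300 and 0.540 CPM in Zeb2 cKO. WT 2 was far above the other libraries, WT 1 lay inside the Zeb2 cKO range, and the fold change was -0.46 without WT 2 and -0.15 without both WT 2 and Zeb2 cKO 1. A further limit is that 63.8% of the Isg15 transcript is near-identical to another annotated gene, AC151275.1. Usp18 lay at 2.07, 3.12 and 2.84 CPM in WT and at 1.42, 2.12 and 1.94 CPM in Zeb2 cKO. Only WT 1 and Zeb2 cKO 2 crossed, by a small margin, and the fold change of -0.55 ± 0.24 was -0.28 without both WT 2 and Zeb2 cKO 1, the lowest of the members there.

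Parp9 and Dtx3l form a complex with ADP-ribosyl transferase and ubiquitin ligase activity, and both stayed near 0. Parp9, the highest of this role per kilobase, lay at 16.6, 21.0 and 18.6 CPM in WT and at 16.8, 16.3 and 18.6 CPM in Zeb2 cKO (-0.12 ± 0.13). Dtx3l lay at 17.2, 21.6 and 20.9 CPM in WT and at 19.2, 18.2 and 20.7 CPM in Zeb2 cKO (-0.04 ± 0.13). For neither gene was Zeb2 cKO 1 the lowest library, and the groups overlapped throughout. Parp14 (-0.08 ± 0.15) and Herc6 (-0.27 ± 0.21) had their lowest value in Zeb2 cKO 1. The reads of Parp9 and Dtx3l may not be separate where the genes overlap on opposite strands, over 682 bases, since the strand setting of the counting is not given in the sources used here.

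The interferon-inducible GTPases attack the vacuoles of intracellular pathogens and answer mainly to type II interferon. They showed the smallest mean difference of the 5 roles, -0.20, with all 6 members below 0 and 4 below -0.2. Gbp2, the highest of them per kilobase, lay at 11.5, 18.2 and 12.9 CPM in WT and at 10.8, 13.4 and 12.6 CPM in Zeb2 cKO (-0.21 ± 0.20). Irgm1, which had the lowest fold change of the role (-0.25 ± 0.22), lay at 9.40, 15.8 and 10.9 CPM in WT and at 8.35, 11.2 and 10.8 CPM in Zeb2 cKO. In both genes WT 2 alone was high, and without it the fold changes were 0.01 and -0.00. Gbp7 was steadier: 19.4, 19.4 and 18.7 CPM in WT and 13.6, 18.0 and 18.3 CPM in Zeb2 cKO. Here the groups did not overlap, yet Zeb2 cKO 2 and 3 lay just below WT 3, and the fold change of -0.21 ± 0.14 was -0.08 without Zeb2 cKO 1. Igtp, whose gene overlaps Irgm2 on the same strand over 7974 bases, lay at 5.50, 6.40 and 5.94 CPM in WT and at 6.06, 6.11 and 4.71 CPM in Zeb2 cKO (-0.08 ± 0.15). Its lowest library was Zeb2 cKO 3, and it was the member with the highest ratio of Zeb2 cKO 1 to the other Zeb2 cKO libraries (1.12). Iigp1 varied most among Zeb2 cKO libraries, 15.6, 35.8 and 21.2 CPM, around WT values of 24.7, 26.0 and 28.1 CPM.

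Of the other interferon-induced genes, all 9 had a fold change below 0, 6 of them below -0.2, and the mean difference was -0.28. Rtp4, a chaperone of receptors at the cell surface, had the lowest (-0.56 ± 0.32), with 4.09, 6.52 and 4.35 CPM in WT and 2.02, 3.94 and 4.19 CPM in Zeb2 cKO. Zeb2 cKO 3 lay between WT 1 and WT 3, and without both WT 2 and Zeb2 cKO 1 the fold change was -0.05. Ifi27l2a, the highest of this role per kilobase, spread widely among the WT libraries, at 4.43, 19.5 and 10.7 CPM, and lay at 4.94, 9.17 and 9.77 CPM in Zeb2 cKO. WT 1 was the lowest of the 6 libraries and WT 2 the highest, and the fold change of -0.54 ± 0.52 was 0.08 without WT 2. Its chromosomal neighbour Ifi27 differed, at 7.04, 10.3 and 9.56 CPM in WT and 8.79, 9.45 and 7.82 CPM in Zeb2 cKO (-0.05 ± 0.17), with Zeb2 cKO 1 in mid-range.

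Lgals3bp, a secreted glycoprotein that binds galectin-3, lay at 14.5, 24.2 and 18.3 CPM in WT and at 11.2, 16.6 and 16.2 CPM in Zeb2 cKO (-0.37 ± 0.23). WT 1 was below Zeb2 cKO 2 and 3, and the fold change was 0.00 with both WT 2 and Zeb2 cKO 1 left out. The other 5 members ranged from -0.36 (Ifi44) to -0.12 (Ifi35), with Trim30a at -0.21, Xaf1 at -0.20 and Sp100, a nuclear body protein, at -0.17.

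**Figure D4:**
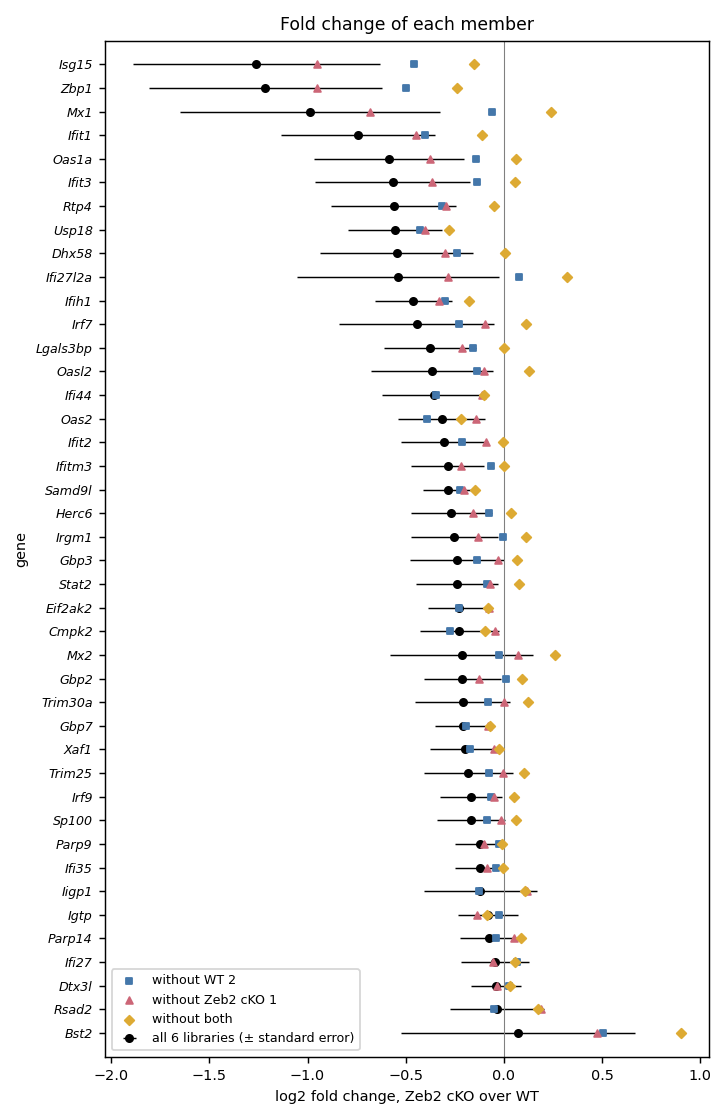
Log2 fold change of Zeb2 cKO over WT for each of the 42 members (rows), with all 6 libraries (black, bars are the standard error), without WT 2 (blue), without Zeb2 cKO 1 (red) and without both (yellow). Black points lie left of 0 for 41 members, and yellow points lie on both sides, 18 left and 24 right.

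Compared among themselves, members of low level had the larger negative fold changes. Across the 42 members the log2 fold change and the log2 level per kilobase had a Pearson's r of 0.57 and a Spearman's rho of 0.55, a description across genes that share the same 6 libraries. The levels spanned 0.170 CPM per kilobase (Zbp1) to 31.6 (Ifitm3), with Ifi27l2a next to the top at 20.5, and the medians by role ran from 1.22 for the sensors and transcription control to 3.35 for the other interferon-induced genes. Members with an ISRE core in the promoter window and those without had like median fold changes, -0.24 (16 members) and -0.25 (14 members). The range was wider with the core, -1.26 to 0.07, than without it, -0.44 to -0.04. Zeb2 cKO 1 was the lowest library for 15 of the 16 and for 12 of the 14, whereas the median level in WT 2 over the other WT libraries was 1.42 with the core and 1.18 without it. Of the stretches shown above, Igtp holds the core and yet was not low in Zeb2 cKO 1.

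Several members are neighbours in the genome (GRCm38, GENCODE M21). Ifit1, Ifit2 and Ifit3 lie together at chr19:34550694-34650009, and all 3 had WT 2 highest and Zeb2 cKO 1 lowest, a pattern of 66.7% of the members. Gbp2, Gbp3 and Gbp7 (chr3:142530342-142638008) had it too. At chr16:97447035-97560900 the highest library was WT 2 for Mx1 and Zeb2 cKO 2 for Mx2. At chr5:120730333-120907521 it was WT 2 for Oas1a and WT 3 for Oas2. The pair Rsad2 and Cmpk2 lies at chr12:26442746-26479837, and in both Zeb2 cKO 1 was the lowest library while WT 2 was not the highest. At chr16:35832874-35972605, Parp9, Dtx3l and Parp14 all stayed above -0.2. Ifi27 and Ifi27l2a lie at chr12:103434211-103443680, within 9.47 kb, and differed in their spread as given above.

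Upstream of the members, the interferons themselves were not detectable at this depth. Of 10 ligand genes in the table, 0 had a read in 4 libraries, and the others held a single read of Ifng each (WT 2 and Zeb2 cKO 3). Ifnb1, the first type I interferon to be made, had 0 reads in all 6 libraries, where a count of 0 allows up to 3 reads, or 0.0558 to 0.0796 CPM depending on the library, for counting error only. The receptor chains were expressed: Ifnar1 lay at 22.0, 30.9 and 23.2 CPM in WT and at 20.5, 21.3 and 22.5 CPM in Zeb2 cKO (-0.24 ± 0.15). Ifnar2 lay at 9.85, 14.3 and 8.62 CPM in WT and at 9.73, 9.79 and 9.73 CPM in Zeb2 cKO (-0.16 ± 0.20). Both were high in WT 2, with Zeb2 cKO 1 close to the other 4 libraries, and the same held for Ifngr1, a chain of the type II receptor, with 46.9 CPM in WT 2 and 26.2 to 31.2 CPM in the other 5. Over the 6 receptor genes, Zeb2 cKO 1 was lowest for 1, and its mean was 0.00 on the same centred log2 scale.

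The signal transducers and the nucleic acid sensors outside the set were high in WT 2, with Zeb2 cKO 1 closer to the rest. Irf1, a transcription factor induced early by interferon, lay at 9.45, 13.1 and 9.32 CPM in WT and at 11.2, 10.9 and 9.31 CPM in Zeb2 cKO (-0.02 ± 0.17), with Zeb2 cKO 1 above 4 of the other 5 libraries. In this list Irf8 (-0.59), a factor of the myeloid lineage, and the kinase Jak1 (-0.17) had the smallest p-values, and Irf8 was at 10.1 CPM in WT 2 and at 3.30 to 4.26 CPM elsewhere. Without WT 2 the fold change turned to 0.09 for Irf8 and was -0.11 for Jak1. Zeb2 cKO 1 was the lowest library for 3 of 8 tested transducers and for 7 of 16 tested sensing genes, of which Irf5 (-0.70) and the endosomal RNA receptor Tlr3 (-0.36) had the smallest p-values. Leaving out WT 2 gave -0.06 for Irf5 and -0.10 for Tlr3. Without WT 2 the mean differences were 0.01 for the transducers and 0.07 for the sensing genes, compared with -0.16 for the 42 members.

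Other interferon targets, 43 tested genes that are not members, had their highest mean in WT 2 and their lowest in Zeb2 cKO 1 as well. Their fold change was below 0 for 37 (51.4% of all tested genes) and below -0.2 for 26 (22.6%). WT 2 was highest for 26 (35.2%) and Zeb2 cKO 1 lowest for 30 (16.9%). The mean of these targets was -0.13, 0.49 and 0.10 in WT and -0.48, 0.05 and -0.03 in Zeb2 cKO. The mean difference of -0.31 was -0.13 without WT 2 and 0.03 without both WT 2 and Zeb2 cKO 1. Slfn8, a Schlafen family gene, was the only one with an unadjusted edgeR p under 0.05 (-1.16 ± 0.46, adjusted p = 0.957), compared with 1.9% of all tested genes. It lay at 8.20 CPM in WT 2 and 1.72 to 3.62 CPM in the other 5 libraries. Its fold change was -0.47 without WT 2 and -0.35 without both WT 2 and Zeb2 cKO 1. The lysosomal thiol reductase gene Ifi30 came next (-0.78 ± 0.35), with 9.68 CPM in WT 2 and 3.26 to 4.27 CPM elsewhere. Without WT 2 the fold change of Ifi30 was -0.23. Over all 73 tested genes of the pathway that are not members, 63 were below 0, 42 below -0.2 and 2 above 0.2 (Ifnlr1 and Mavs), and 0 passed the adjusted threshold. The shares of all tested genes were 51.4% below 0, 22.6% below -0.2 and 15.9% above 0.2.

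**Figure D5:**
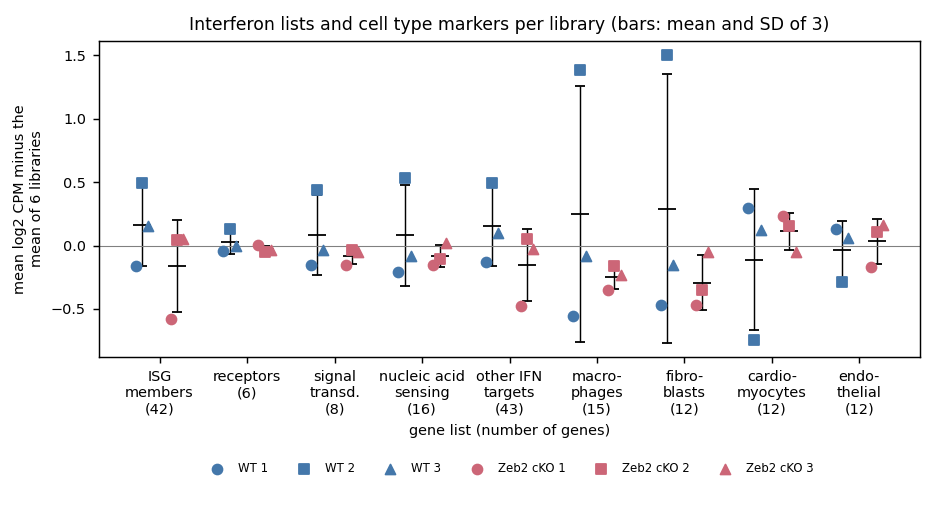
Mean log2 CPM minus the mean of the 6 libraries (vertical axis) for the members, 4 other interferon lists and 4 lists of cell type markers, per library; WT in blue, Zeb2 cKO in red, bars give the mean and SD of 3. WT 2 is high in the members and in the macrophage and fibroblast markers, whereas Zeb2 cKO 1 stands below the other libraries in the members and in the other interferon targets.

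Macrophage and fibroblast markers were high in WT 2, and the fibroblast markers were also on the low side in Zeb2 cKO 1. The 15 macrophage markers were at 249, 983 and 346 CPM in WT and at 321, 315 and 302 CPM in Zeb2 cKO in sum, with WT 2 highest for 14 of them and Zeb2 cKO 1 lowest for 2. Relative to the mean of the other libraries of its group, the median marker was 3.58 times as high in WT 2 and 0.886 times as high in Zeb2 cKO 1, compared with 1.27 and 0.654 for the interferon-stimulated genes. For the 12 fibroblast markers WT 2 was highest for 12 and Zeb2 cKO 1 lowest for 7, with sums of 1752 CPM in Zeb2 cKO 1 and 1767 CPM in WT 1. The median fibroblast marker was 3.43 times as high in WT 2 and 0.765 times as high in Zeb2 cKO 1 as in the other libraries of the group, and 6 of the 12 fell short of 0.75 in Zeb2 cKO 1. Adipocyte markers were highest in Zeb2 cKO 1 by their mean (0.48 on the centred log2 scale over the 3 of 8 that passed the filter on low counts), with 83 reads of Cfd compared with 9 to 29 in the other libraries and 25 reads of Adipoq compared with 2 to 9. By sum, which rests mainly on Fabp4, also expressed in endothelial cells, the tested adipocyte markers lay at 165 CPM in Zeb2 cKO 1 and between 129 and 221 CPM elsewhere. Endothelial markers summed to 529 to 737 CPM in WT and to 632 to 755 CPM in Zeb2 cKO, and Zeb2 cKO 1 was lowest for 3 of 12. Pericyte and smooth muscle markers summed to 683 to 1021 CPM in WT and to 935 to 1034 CPM in Zeb2 cKO. Leukocytes other than macrophages left few reads: 5 of 16 lymphocyte markers (1.31 to 3.26 CPM in sum over the 6 libraries), 3 of 8 neutrophil markers (1.45 to 4.72 CPM) and 1 of 5 markers of plasmacytoid dendritic cells passed the filter on low counts. Without WT 2 the macrophage and fibroblast means differed by 0.07 and 0.02 between the genotypes. The part of the macrophage, fibroblast and adipocyte content in the members' result was not tested.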

How the data were processed

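The authors deposited 1 table of raw read counts per gene for 6 libraries of separate mice. Per the methods, stranded libraries from RNA without ribosomal RNA were read as single ends of 75 bases and counted on GENCODE M4 with STAR; the build is GRCm38 per the submitters' notes, and the handling of multi-mapping reads is not given in the sources used here. Columns were matched to samples by the labels' descriptions.

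From these counts, TMM normalization, filterByExpr and quasi-likelihood tests were run in edgeR 4.0.16 (R 4.3.3) with genotype as the factor, with Benjamini-Hochberg adjustment over 14746 genes. DESeq2 1.42.0 was an alternative. Log2 CPM used a prior count of 2, and fold changes a prior count of 0.125. Depth was 37288174 to 51136331 counts, so that the spread between mice limits precision except for genes with few reads. Single genes were compared by exact permutation tests, whose smallest two-sided p is 0.10. Symbols, lengths and overlaps came from GENCODE M21, promoter windows from RefSeq (GRCm38.p6), and near-identical copies (75 bases or more, 95% identity or more) from BLAST 2.17.0. The methods were tested on simulated data with the real libraries' sizes: among 14903 genes tested, 39 of the 100 given a log2 change of 1 were called by edgeR, and 100 of the 100 given a change of 2.

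The members, their roles and the lists of other interferon genes and cell type markers were chosen with earlier results of these data known. Any member could be named. Values per library were given for Irf7, Irf9, Stat2, Isg15, Ifit1, Ifit3, Bst2, Ifitm3 and Lgals3bp, and in each role for the members with the largest drop, the largest rise, the smallest p and the highest level; Eif2ak2, Rsad2 and Iigp1 were added after their values were seen. Outside the set, Zeb2, Irf1, Ifnb1, Ifng, Ifnar1 and Ifnar2 were named, with the pair of smallest p in each list; another gene that the rule names is not reported here. Alternatives were other size factors, library totals alone, mitochondrially encoded genes left out, no filter, robust dispersions, another prior count, the median over members, the replicate number as a block, and each library left out. Leaving out WT 2 and Zeb2 cKO 1 together was added after the data were seen.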

Additional observations from a re-analysis of the deposited data

How the results depend on the processing

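The direction of every member's fold change was the same under other size factors, without mitochondrially encoded genes, without the filter, with robust dispersions and in DESeq2, and turned for 1 member with library totals alone. The module mean difference of -0.33 ranged from -0.49 to -0.12 with 1 library left out and was 0.0484 without both WT 2 and Zeb2 cKO 1, a pair chosen from its values. By role the ranges with 1 library left out and the values without that pair were -0.63 to -0.19 and 0.0154 for sensors and transcription control, -0.52 to -0.08 and 0.104 for antiviral effectors, -0.51 to -0.17 and -0.0447 for the ISG15 cycle, -0.32 to -0.06 and 0.0326 for the GTPases, and -0.43 to -0.08 and 0.0602 for the other members.

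Members below -0.2 numbered 30, 14 to 34 with 1 library left out and 3 without the pair (22.6%, 11.7% to 28.8% and 11.1% of all tested genes). Those above 0.2 numbered 0, 0 to 1 and 4 (15.9%, 14.2% to 26.5% and 14.3%). Among the other interferon pathway genes, 42 were below -0.2, 11 (without WT 2) to 47 with 1 library left out and 5 without the pair, and 2 were above 0.2, 1 to 6 and 7. Members with an unadjusted p under 0.05 numbered 0 with all libraries, 1 without the filter on low counts (2.49% of all genes), 0 to 9 with 1 library left out (9 without WT 1, 1 without Zeb2 cKO 2, 2 without Zeb2 cKO 3, compared with 7.52%, 1.2% and 2.49% of all genes) and 1 without the pair (Bst2, higher; 1.97%). Members whose libraries did not overlap in the lower direction numbered 3 (2.97% of all tested genes), and 0 with library totals alone. With 1 library left out they numbered 3 to 21, while the share of all tested genes was 5.12% to 12.1%. The largest counts were 21 without WT 1 (12.1%) and 11 without Zeb2 cKO 3 (10.8%). In the higher direction they numbered 0, and 3 without the pair (13.3% of all tested genes). The count at an adjusted p under 0.05 was 0 under each of these settings. The cause of these changes was not tested.

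The replicate numbers did not pair the mice: correlations of same-numbered libraries' deviations were 0.09, -0.14 and -0.09, and the libraries did not all correlate best with their own number. With the replicate block, 4 members (Ifih1, Zbp1, Ifit1 and Usp18) had an unadjusted p under 0.05 (1.68% of all tested genes) and 0 an adjusted one. For Isg15, Zbp1 and Mx1 the low number of reads limits precision.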
